A study of Mus musculus with 12 samples.

Results

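Large rises in the knockout are described here for 8 genes that the count tables name only by a model or clone: Gm15459, Gm43305, Gm8141, Gm37632, Gm37534, A430106G13Rik, Gm14085 and BC002059. They were 8 of 55335 gene rows in the count tables and of 29644 rows with such names, and were listed because their RNA or their ribosome footprints were much higher in knockout than in wild-type thymocytes. The difference between genotypes therefore chose the genes, and their values are given below as a description with no test. Thymocytes, the developing T cells of the thymus, came from mice of 6 weeks, either wild type (WT) or labelled as miR-181a/b-1 knockout (KO), that is, lacking a pair of neighbouring microRNA genes. Each genotype was profiled by RNA-seq of total RNA and by ribosome footprinting, in which the RNA fragments that ribosomes shield from nuclease are sequenced. All 4 groups of 3 libraries shared the same handling: cells were passed through a 70 µm strainer and kept in buffer with 0.1 mg/ml cycloheximide, a drug that halts ribosomes, and libraries were built with a commercial ribosome profiling kit. Nothing on strain, sex or the design of the deleted allele is given in the sources used here. Nor is it stated whether an RNA-seq and a footprint library share a mouse, so p-values measure only the spread between these libraries.

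A gene symbol made of Gm and digits, of a clone code ending in Rik, or of a sequence code such as BC and digits stands for a locus named from a computer prediction or a cloned transcript, often without an assigned function. Such loci can be protein-coding genes, long noncoding RNAs (lncRNAs) or pseudogenes, which are copies of other genes that have usually lost their coding function. Ribosomes cover coding sequence while they translate it, so the footprints of a coding transcript are usually many relative to its RNA, while a noncoding or nuclear transcript carries few. A footprint count alone does not show that a protein is made, and a pseudogene can share reads with its parent gene.

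The RefSeq annotation of GRCm38.p6 holds 5 of the 8 genes: Gm15459 and Gm8141 as pseudogenes, Gm43305 and BC002059 as lncRNAs, and Gm14085, under the name Slc28a2b, as a protein-coding gene. The other 3, Gm37632, Gm37534 and A430106G13Rik, were matched to no RefSeq entry. The deleted microRNAs are shown because they define the knockout. Both mature 5p arms come from the plus strand of chromosome 1, at chr1:137966468-137966490 for miR-181a and chr1:137966650-137966673 for miR-181b (RefSeq, GRCm38.p6). Capitals mark the seed, bases 2 to 8, which pairs with target RNAs and is the same in both.
mmu-miR-181a-5p: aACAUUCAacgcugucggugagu
mmu-miR-181b-5p: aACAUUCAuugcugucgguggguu
In the footprint libraries the Mir181a-1 row fell with the labels, with 148 ± 16.8 (SD, n = 3) CPM (a gene's reads scaled to a common library total) in WT and 0.827 ± 0.316 in KO. In RNA-seq the same row showed no such loss: it held 57 reads in the libraries labelled WT and 67 in those labelled KO, a pooled KO to WT ratio of 1.22 with a 95% exact interval of 0.842 to 1.76. For RNA-seq this row thus goes against the KO label, and WT and KO stand below for the libraries labelled so. The Mir181b-1 row held 0 reads in every library.

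Reads in genes ranged from 4479182 (KO replicate 2) to 8180286 (KO replicate 3) per RNA-seq library. Per footprint library they ranged from 4069968 (KO replicate 3) to 17859770 (WT replicate 2). Of the RNA-seq reads, 13.1% to 20.5% aligned to several places and were set apart from the gene counts, against 17.7% to 18.6% of the footprint reads. A further 50.9% to 57.1% of the RNA-seq reads fell in no counted gene feature, against 5.32% to 6.39% of the footprint reads. In both tables the WT and KO libraries of the same replicate number deviated in opposite ways from their group means, with correlations of -0.98 to -0.96 over 9065 genes in RNA-seq and of -0.99 over 8149 genes in footprints. The deposited counts are called adjusted, with no statement of how, so the SDs below are those of adjusted counts. Libraries with tied deviations are not independent, and a fit that takes the replicate number as a block called 110 genes in RNA-seq, where the fit without it called 943, and 408 in footprints, against 2376. Where the block ends a call named below, its adjusted p is given beside it. Summed over 12 thymocyte markers, levels were 15100 to 16600 CPM in WT and 14500 to 15600 CPM in KO RNA-seq libraries. Of 5 further marker lists, the summed RNA-seq levels of stroma and vessel genes (179 to 186 CPM in WT, 209 to 219 in KO), thymic epithelium genes (18.8 to 22.1 and 14.2 to 17.3) and red cell genes (52.1 to 60.4 and 37.3 to 43.9) did not overlap between genotypes, B cell and myeloid lists overlapped, and no marker was at 0. In footprints the stroma and vessel list (158 to 174 CPM in WT, 177 to 197 in KO) and the thymic epithelium list (75.3 to 82.1 and 59.7 to 70.3) were also apart, while the red cell list overlapped. The part of these cells in the rises was not tested, and in bulk RNA more cells of a type and more RNA per cell cannot be told apart.

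All 8 genes were higher in every KO library than in every WT library, in RNA-seq and in footprints. Such separation upward was found for 15.5% of 13652 genes tested in RNA-seq and for 18.5% of 13509 genes tested in footprints. In edgeR's quasi-likelihood test with Benjamini-Hochberg adjustment, 6 of the 7 listed genes with enough RNA-seq reads and 8 of 8 in footprints passed an adjusted p of 0.05 as higher, where 3.48% and 9.25% of all genes did and 3.43% and 8.34% passed as lower. The listed genes were chosen from this same contrast, so these counts carry no evidence of their own. Fitted log2 differences between KO and WT had a median of 2.46 over 7 listed genes in RNA-seq and of 2.5 over 8 in footprints, against 0 and -0.01 over all genes. The authors' deposited table for RNA-seq marks 6 of the listed genes as significantly higher and BC002059 as not, their footprint table marks 7, and neither table holds Gm8141. CPM below are relative to the normalised (TMM) library total, and since gene length is not divided out, levels are compared within a gene and not between genes.

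**Figure D1:**
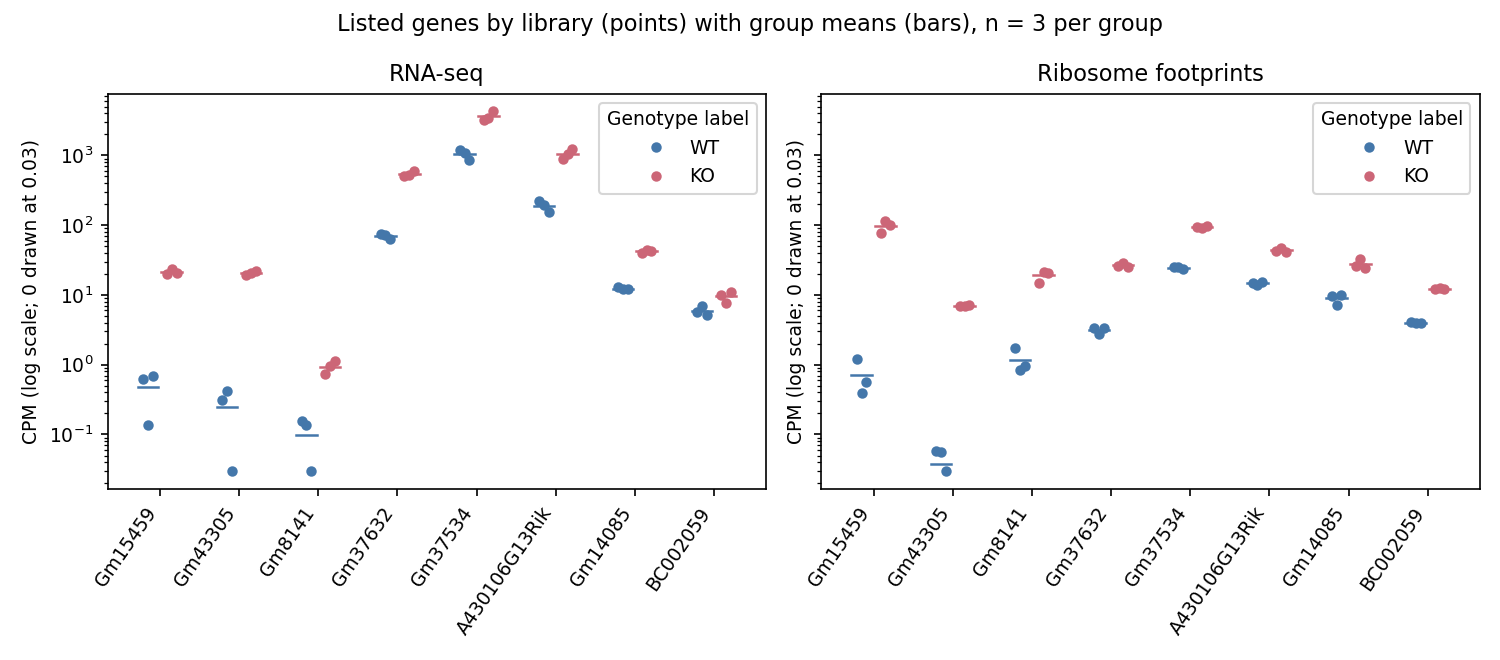
CPM on a log axis in each of the 12 libraries for the 8 listed genes, WT and KO side by side, with RNA-seq and footprints drawn apart; each point is 1 library, short bars are group means and a value of 0 is drawn at 0.03. Every KO point lies above every WT point of the same gene and assay.

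The pseudogene Gm15459 was almost without reads in WT. Its RNA-seq levels were 0.633, 0.139 and 0.686 CPM in WT replicates 1 to 3, from 10 reads in all, and 20, 23.8 and 20.5 CPM in KO, from 403 reads. Its footprints were 1.2, 0.391 and 0.567 CPM in WT, from 34 reads, and 77.9, 115 and 102 CPM in KO, from 3026 reads. The WT libraries stayed under 2 CPM in both assays and the KO libraries stood far above them. The ratio of KO to WT reads, pooled over libraries, was 41.7 in RNA-seq with a 95% exact interval of 22.4 to 87.6, which like the other intervals covers counting error only. The fitted log2 differences were 5.41 (SE 0.26) in RNA-seq and 7.04 (SE 0.30) in footprints.

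Gm8141, the other pseudogene, differed from Gm15459 in having footprints in KO with almost no RNA. RNA-seq gave 1, 1 and 0 reads in the WT libraries and 5, 4 and 9 in the KO libraries, which was too few for the fit. The pooled KO to WT ratio was 9.31, with an interval of 2.23 to 82.8. Footprints gave 1.71, 0.837 and 0.946 CPM in WT, from 55 reads, and 14.7, 21.5 and 20.8 CPM in KO, from 576 reads. All 3 KO footprint libraries thus stood well above WT, with a mean of 19 ± 3.74 (SD, n = 3) against 1.17 ± 0.478 CPM, a ratio of 16.3, while the RNA values rested on 18 KO reads. Counts of both pseudogenes are uncertain in that reads aligning to several places were set apart before counting, and how many of those belong to a pseudogene or to a gene of similar sequence was not tested.

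Gm43305, an lncRNA by RefSeq, went from near absence in WT to a similar level in all KO libraries. Its RNA-seq reads numbered 2, 3 and 0 in WT and 133, 87 and 176 in KO, which made 20.6 ± 1.25 CPM (SD, n = 3) in KO. Its footprint reads numbered 1, 1 and 0 in WT and 75, 106 and 29 in KO, which made 6.97 ± 0.12 CPM. The KO values lay close together in both assays, and the WT values were at the edge of detection. These are adjusted counts with tied deviations, so the closeness is no measure of the spread between mice. The pooled KO to WT ratio was 82.0 in RNA-seq, with an interval of 34.8 to 254, and 158 in footprints, with an interval of 43.3 to 1320. With 2 WT footprint reads in all, the size of the footprint ratio is known only within that wide range. The 300 bases around its RefSeq start, 250 before and 50 after, at chr14:54297439-54297738 on the minus strand, were 57.3% G or C and held 15 CpG dinucleotides, against medians of 52.7% and 7 over 32851 promoters of that length. They held TATAAA at position -27 from the start, a motif found on either strand in 13.6% of those promoters.

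Gm37632, Gm37534 and A430106G13Rik had the most RNA reads of the list and were present in both genotypes. Gm37632 measured 75.4, 73.4 and 62.7 CPM in WT RNA-seq libraries and 515, 530 and 602 CPM in KO. Its footprints measured 3.31, 2.79 and 3.40 CPM in WT and 25.8, 28.8 and 25.2 CPM in KO. The ratios of KO to WT means were close in the assays, 7.79 in RNA-seq and 8.40 in footprints.

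Gm37534 measured 1200, 1100 and 846 CPM in WT RNA-seq libraries and 3220, 3490 and 4260 CPM in KO. Its footprints measured 24.8, 25.5 and 23.6 CPM in WT and 92.7, 89.8 and 96.3 CPM in KO. Again the assays moved by like amounts, with ratios of means of 3.49 and 3.77.

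A430106G13Rik rose further in RNA than in footprints. It measured 224, 195 and 152 CPM in WT RNA-seq libraries and 888, 1030 and 1220 CPM in KO, a ratio of means of 5.49. Its footprints measured 15, 13.8 and 15.4 CPM in WT and 43.3, 46.6 and 41.6 CPM in KO, a ratio of 2.98. In RNA-seq, the lowest WT library and the highest KO library of Gm37534 and A430106G13Rik both carried replicate number 3, the mirrored pattern seen across genes.

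Gm14085 is the one listed gene that RefSeq calls protein-coding. As Slc28a2b it belongs to the concentrative nucleoside transporters, membrane proteins that bring nucleosides into cells with sodium. RNA-seq gave 13, 12 and 12.1 CPM in WT and 40.2, 44.6 and 42.9 CPM in KO. Footprints gave 9.65, 7.14 and 10 CPM in WT and 25.8, 33.1 and 24.7 CPM in KO. The groups were well apart and moved alike in the assays, with ratios of means of 3.45 and 3.12 and log2 differences of 1.78 (SE 0.08) and 1.69 (SE 0.17).

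The sequence around the RefSeq start of Gm14085 is shown because RefSeq calls this listed gene protein-coding. That of its neighbour and family member Slc28a2 was not compared with it. The window of Gm14085 covers chr2:122484691-122484990 on the plus strand (RefSeq, GRCm38.p6), from 250 bases before the start to 50 after. Capitals mark CCAAT, found at position -28 from the start.
Gm14085: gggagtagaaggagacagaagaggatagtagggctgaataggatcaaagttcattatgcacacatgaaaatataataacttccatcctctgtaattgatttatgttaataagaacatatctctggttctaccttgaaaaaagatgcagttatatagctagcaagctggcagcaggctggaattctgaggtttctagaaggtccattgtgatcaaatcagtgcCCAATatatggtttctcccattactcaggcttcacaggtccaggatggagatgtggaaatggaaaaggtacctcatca
The window was 40.0% G or C with 0 CpG dinucleotides. CCAAT or its reverse complement ATTGG occurred in 37.4% of the 32851 promoters, and TATAAA or its reverse complement was not among the letters of this window.

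Slc28a2, which lies 2 genes before Gm14085 in the RefSeq order and was not used to choose the list, was also higher in KO RNA. It measured 36.9, 38.8 and 32.2 CPM in WT and 51.8, 48.6 and 57.8 CPM in KO, so the groups did not overlap. The log2 difference was 0.56 (SE 0.10), with an adjusted p of 0.0279 in edgeR's test, and the omission of any 1 of the 6 libraries raised the adjusted p to between 0.0506 and 0.0902, and the block on the replicate number raised it to 0.193. In footprints Slc28a2 went from 46.0 ± 3.29 to 53.5 ± 3.91 CPM (SD, n = 3), a log2 difference of 0.20 with an adjusted p of 0.115 in edgeR. Reads aligning to several places were set apart, and whether any belonged to Slc28a2 or Gm14085 was not tested. Bambi-ps1, a pseudogene 1 gene before Gm14085, had footprints of 12.5, 11.3 and 14.2 CPM in WT and 21.5, 23.1 and 18.4 CPM in KO, a log2 difference of 0.78 (SE 0.11) with an adjusted p of 0.00642 in edgeR. Its RNA difference of 0.43 did not pass, with an adjusted p of 0.151 in edgeR.

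The wider family of nucleoside transporters had small differences. Of its 7 genes, 3 could be tested in RNA-seq, with a median log2 difference of 0.31. Of these, 2 had an unadjusted p under 0.05 in edgeR, as did 3248 of all 13652 genes. Among the 3, edgeR called 1 higher (Slc28a2), against 3.48% of all genes. With the block the call was lost. The equilibrative transporter Slc29a1 was also higher in every KO library (66.4 to 81.4 CPM) than in every WT library (55.6 to 66 CPM), a log2 difference of 0.31 with an adjusted p of 0.13 in edgeR. In footprints 4 could be tested and edgeR called 0, with differences between -0.23 and 0.27, while DESeq2 called 1. An unadjusted p under 0.05 in edgeR was found for 2 of the 4, and for 4465 of all 13509 genes. Slc29a1 had the largest of these footprint differences, 161 ± 14.5 CPM (SD, n = 3) in WT and 195 ± 17.5 CPM in KO. Slc29a3 measured 42.3 ± 1.17 CPM in WT and 43.8 ± 1.28 CPM in KO footprints.

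BC002059, an lncRNA by RefSeq, rose more in footprints than in RNA. RNA-seq gave 5.70, 6.95 and 5.08 CPM in WT and 9.91, 7.79 and 10.9 CPM in KO. Footprints gave 4.06, 3.96 and 3.97 CPM in WT and 12.1, 12.4 and 12.2 CPM in KO. The footprint values of a group were nearly equal, which in adjusted counts is no measure of the spread between mice. The RNA groups came within 1 CPM of each other, at 6.95 in the highest WT and 7.79 in the lowest KO library. Ratios of KO to WT means were 1.62 in RNA-seq and 3.07 in footprints. BC002059 was the listed gene that did not pass in the RNA-seq fit, with an adjusted p of 0.057 in edgeR. It passed in edgeR when the filter on low counts was dropped, at 0.0356. It did not pass with DESeq2 (0.202), with the block in edgeR (0.38) or on the omission of any 1 library (0.0617 to 0.169 in edgeR). The contrast between genotypes chose this gene, so these values describe the fits and do not test its rise.

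The RefSeq start of BC002059 is shown for comparison with that of Gm14085. The window is chr17:16951286-16951585 on the plus strand (RefSeq, GRCm38.p6), again from 250 bases before the start to 50 after. Capitals mark CCAAT at position -137 from the start and its reverse complement ATTGG at position -226.
BC002059: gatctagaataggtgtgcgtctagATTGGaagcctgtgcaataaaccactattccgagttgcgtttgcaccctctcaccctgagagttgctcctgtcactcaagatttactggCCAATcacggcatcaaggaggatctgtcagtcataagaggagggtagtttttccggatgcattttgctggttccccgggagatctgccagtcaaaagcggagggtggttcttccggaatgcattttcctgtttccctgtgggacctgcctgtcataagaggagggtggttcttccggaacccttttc
The window was 50.7% G or C with 9 CpG dinucleotides, near the promoter medians, where that of Gm14085 was poorer in both. These matches are a description of letters and show no bound factor.

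Of 4 genes tested in footprints within 10 steps of BC002059, edgeR called 2 higher in KO and 0 lower, against 9.25% and 8.34% of all genes. Gm5165, 5 genes after it, measured 1.88, 1.56 and 2.46 CPM in WT and 6.76, 7.45 and 5.14 CPM in KO footprints, a log2 difference of 1.83 (SE 0.19) with an adjusted p of 0.00244 in edgeR. Gm6712, 6 genes after it, measured 1.03, 0.670 and 0.662 CPM in WT and 2.22, 2.92 and 3.18 CPM in KO footprints, a difference of 1.74 (SE 0.23) with an adjusted p of 0.00547 in edgeR and of 0.0525 with the block. For both, the lowest KO library was above the highest WT library, as for 18.5% of all genes tested in footprints. In RNA-seq neither passed, with log2 differences of 0.85 and 0.30 and adjusted p of 0.261 and 0.556 in edgeR.

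Over all 5 genes with a RefSeq position, the neighbours were a measure that the choice of genes had not used. Of the 20 genes within 2 steps on each side, 14 had a count row and 4 could be tested in each assay, of which 1 was higher in RNA-seq (Slc28a2) and 2 in footprints (Bambi-ps1 and Abhd4). Within 10 steps on each side, 28 genes were tested in RNA-seq, where edgeR called 1 higher and 0 lower, and 25 in footprints, where it called 6 higher and 1 lower. With the block these became 0 in RNA-seq and 2 in footprints (Bambi-ps1 and Gm5165). The background shares were 9.25% higher and 8.34% lower in footprints, and no test of the difference was made on so few genes. Around Gm43305, in a gene-dense stretch with 12 neighbours tested in footprints, Abhd4 and Dad1 were called higher by 0.55 and 0.26 on the log2 scale, and Mmp14, a membrane-bound matrix metalloproteinase, was called lower with a log2 difference of -0.81, at adjusted p of 0.0362, 0.00667 and 0.0203 in edgeR. With the block these were 0.281, 0.159 and 0.0569, so none of the 3 passed. Oxa1l, 2 genes after Gm43305, had a footprint difference of 0.03 with an adjusted p of 0.813 in edgeR. Near Gm15459, Cldn12, a claudin gene 8 genes before it, had a footprint difference of 1.67 (SE 0.33, adjusted p of 0.0186 in edgeR, 0.168 with the block) and an RNA difference of -0.03. The call for Abhd4 was lost on the omission of any 1 library, and those for Mmp14 and Cldn12 on the omission of 3 of the 6. Around Gm8141, 1 neighbour could be tested and was not called.

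**Figure D2:**
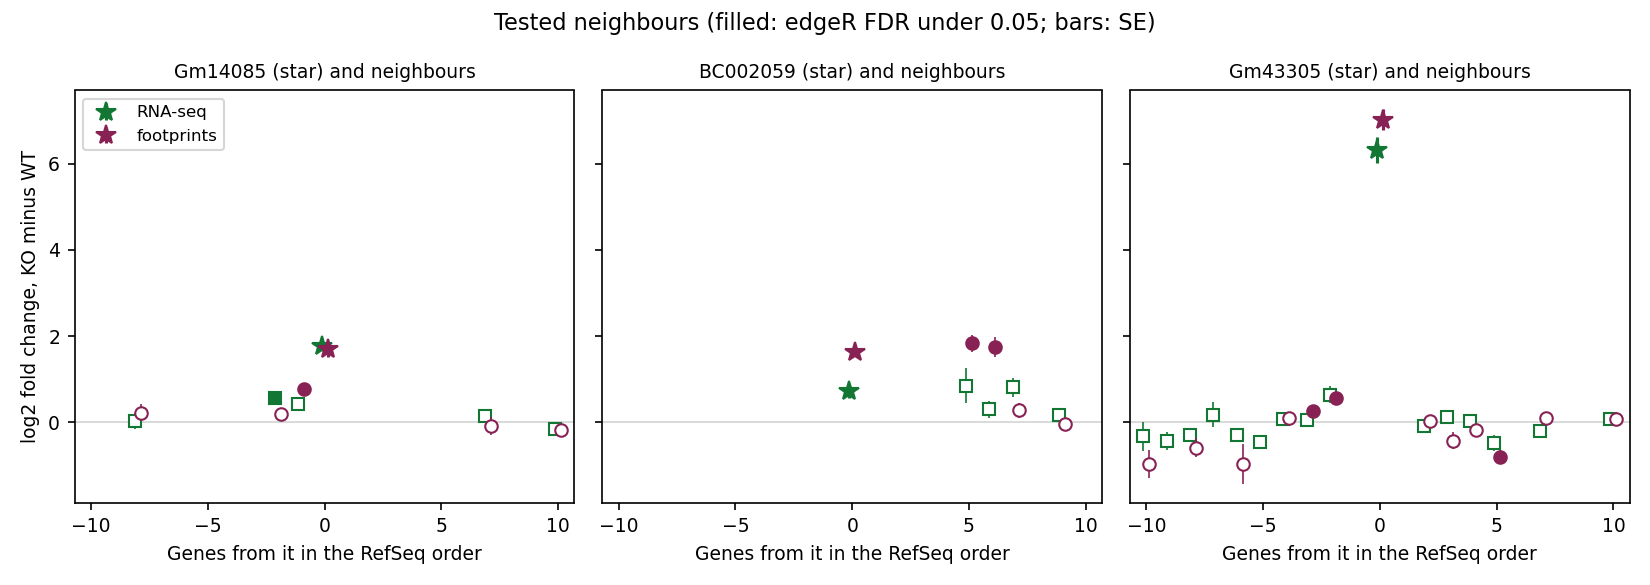
Log2 difference of KO from WT (vertical axis) for genes up to 10 steps before and after Gm14085, BC002059 and Gm43305, which are drawn as stars (horizontal axis, steps in gene order, not distance); squares are RNA-seq, circles footprints, bars the SE, and filled points passed the test. Slc28a2, 2 steps before Gm14085, is the 1 filled square, and the 6 filled circles are Bambi-ps1, Gm5165, Gm6712, Dad1, Abhd4 and, below 0, Mmp14.

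Whether these transcripts look coding was asked from their footprints relative to their RNA within the KO libraries, where they had the most reads. The ratio is the log2 of mean footprint CPM over mean RNA CPM, each with 0.5 CPM added. The tables were adjusted separately, so a ratio across them is a description, and it is read by its place among other genes. In KO, 13210 protein-coding genes had a median of -0.01, with 5% below -1.95 and 5% above 1.78. The 776 lncRNAs had a median of -1.18 and the 1510 pseudogenes a median of 0.44. Of 23 transcripts known as noncoding that had a row, 20 had enough reads, with a median of -2.01 and a range from -4.88 for Neat1, a nuclear RNA, to 0.16 for Xist, which rested on 10 reads. Another nuclear RNA, Malat1, was at -3.01. The 12 coding reference genes ranged from -1.22 for Eef1a1 to 3.17 for Gapdh, with Cd4 at 1.32 and Rag1 at 0.49.

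The listed genes spread over the whole range of this ratio. Gm8141 was highest at 3.77, between 3.23 and 4.16 over the 9 pairings of a footprint with an RNA library, above 99.9% of coding genes. With 18 RNA reads this value depends on the added constant and was 4.21 with 0.1 CPM. Gm15459 followed at 2.17 (1.69 to 2.49), above 97.8% of coding genes and 96.3% of pseudogenes. The ranges of the 2 pseudogenes did not overlap, and both stood near the top of the coding genes. In adjusted counts with tied deviations, the ranges over pairings given here and below are no measure of the spread between mice.

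BC002059 and Gm14085 lay among coding genes. BC002059 stood at 0.35 (0.14 to 0.64), above 62.3% of coding genes and above 95.2% of the lncRNAs, the class to which RefSeq assigns it. Gm14085 stood at -0.60 (-0.84 to -0.28), above 30.1% of coding genes. Its family member Slc28a2 was at 0.02 and Slc29a1 at 1.38. The ranges of BC002059 and Gm14085 did not overlap.

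Gm43305 stood at -1.50 (-1.60 to -1.39), a place held by both classes. It was above 9.46% of coding genes and above 36.7% of lncRNAs, so its ratio was low for a coding gene and ordinary for an lncRNA.

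The 3 genes with the most RNA reads had the lowest ratios. Gm37632 stood at -4.34 (-4.55 to -4.14), above 0.114% of coding genes and 1.68% of lncRNAs. A430106G13Rik stood at -4.56 (-4.85 to -4.24), a range that overlapped that of Gm37632. Gm37534 was lowest at -5.29 (-5.56 to -5.06), above 0.00757% of coding genes and 0.388% of lncRNAs, and its range lay below both. In these 3 the footprint signal was 0.0494, 0.0424 and 0.0255 of the RNA signal, near that of Neat1 and below that of Malat1. They had no RefSeq position, and whether RNA of other genes enters their counts was not tested. The share of reads outside counted features also differed widely between the assays.

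**Figure D3:**
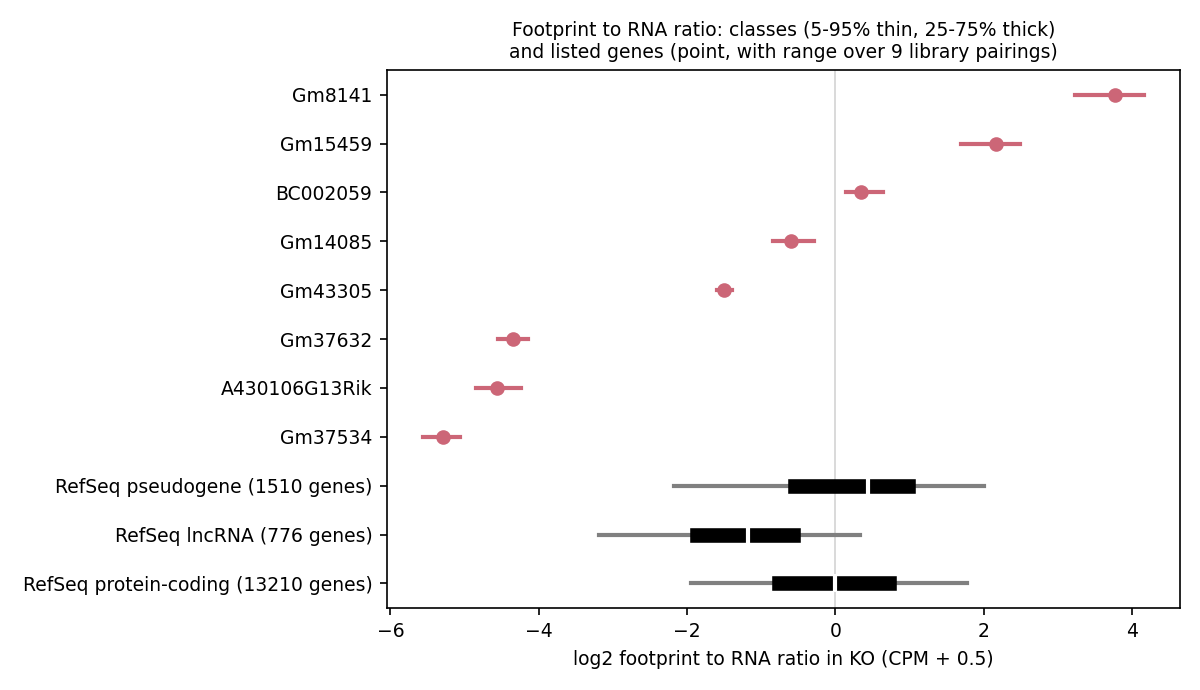
Log2 ratio of footprint to RNA signal in KO for the 8 listed genes, with bars for the range over 9 pairings of libraries, above the classes of RefSeq genes, whose thin bars span 5% to 95% of the genes, thick bars 25% to 75%, and white gaps mark the medians. Gm8141 and Gm15459 lie at the top and Gm37632, A430106G13Rik and Gm37534 at the bottom.

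In WT the order was the same where reads allowed, except that BC002059 and Gm14085 changed places, as did Gm37632 and A430106G13Rik. Gm37632 was at -4.27, Gm37534 at -5.38 and A430106G13Rik at -3.65, and Gm14085 was at -0.44. BC002059 was at -0.51 in WT against 0.35 in KO. The WT values of Gm15459 (0.31, from 10 RNA and 34 footprint reads) and Gm8141 (1.48, from 2 and 55) rest on levels near the added constant, which pulls them toward 0. Gm43305 had 7 reads over both assays in WT and got no value in the text.

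How far footprints moved beyond RNA was fitted over all 12 libraries as the interaction of genotype and assay, with 11854 genes in both fits. Of these genes 0.135% were called higher and 0.0759% lower by edgeR, and 0 of the 7 listed genes were called. An unadjusted p under 0.05 in edgeR was found for 2 of the 7, and for 1660 of all 11854 genes. The listed genes were chosen from their differences in these same assays, so their interaction values are a description with no evidence of their own. BC002059 had a log2 difference of 0.89 (SE 0.19), that is, a larger rise in footprints than in RNA, and A430106G13Rik one of -0.87 (SE 0.21). Gm15459 had the largest estimate, 1.60, with a wide SE of 0.86. Gm43305 was at 0.60 (SE 0.66), Gm37632 at 0.13 (SE 0.16), Gm37534 at 0.10 (SE 0.18) and Gm14085 at -0.10 (SE 0.20), each within 1 SE of 0.

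**Figure D4:**
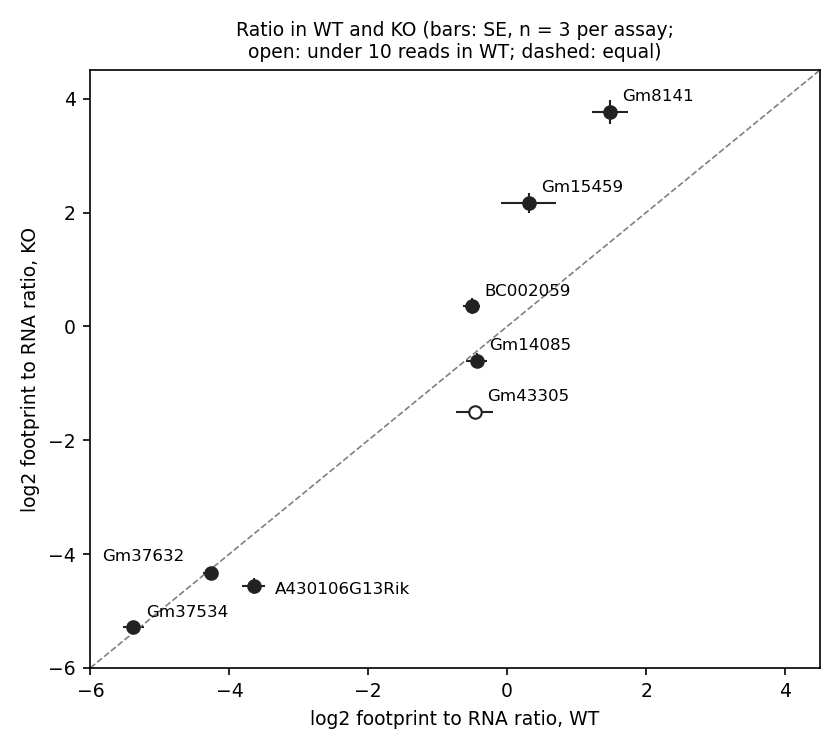
Log2 ratio of footprint to RNA signal in WT (horizontal axis) and KO (vertical axis) for the listed genes, with bars for the SE from the spread of 3 libraries per assay; the dashed line marks equal ratios, and the open point, Gm43305, had under 10 WT reads and is not read here. BC002059, Gm15459 and Gm8141 lie above the line, A430106G13Rik below it, and Gm14085, Gm37534 and Gm37632 close to it. The WT values of Gm15459 and Gm8141 rest on few reads, and the added constant pulls them toward 0.

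Most other genes with such names did not pass the test. Without the listed genes, 2478 were tested in RNA-seq, of which 86 (3.47%) were higher and 45 (1.82%) lower in KO. In footprints 1597 were tested, of which 111 (6.95%) were higher and 66 (4.13%) lower. Over all genes tested, 3.48% were higher and 3.43% lower in RNA-seq, and 9.25% and 8.34% in footprints. The median differences of the genes with such names outside the list were 0.06 and 0.04 on the log2 scale. With the block, 7 of them were higher and 8 lower in RNA-seq, and 23 and 13 in footprints. Ranked by rise among these names, 6 of the listed genes stood within the first 8 of 2485 in RNA-seq, and BC002059 stood at 123. In footprints the listed genes stood between 1 and 26 of 1605. The next rises outside the list in RNA-seq were Gm9008 at 2.31 (15 reads in WT, 70 in KO) and Gm48321 at 2.00. In footprints they were Gm9436 at 3.66 (67 reads in WT, 576 in KO) and 3830403N18Rik at 3.31, and Gm5483 had 0 reads in WT and 25 in KO.

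The genes whose pattern over the 12 libraries was most like the median of the listed genes were 2510009E07Rik (Pearson's r of 0.996), Peak1 (0.995), Gpd2 (0.995), Dusp10 (0.991) and Baz2b (0.991). Levels were taken as log2 of CPM plus 0.5, centred within each assay, so the likeness reflects mainly the split by genotype and the adjustment that the libraries share. Of 11847 genes outside the list, 360 had an r above 0.9. The log2 differences of these 5 were below those of the listed genes in footprints, and in RNA-seq below those of all but BC002059, which differed by 0.72. 2510009E07Rik differed by 0.73 in RNA-seq and 0.81 in footprints, and Baz2b by 0.35 and 0.34. Gpd2, the mitochondrial glycerol-3-phosphate dehydrogenase, differed by 0.60 and 0.59, and Dusp10, a phosphatase of MAP kinases, by 0.60 and 0.69. The listed genes themselves had an r of 0.918, for Gm8141, to 0.996 with their own median, which they form.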

How the data were processed

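Reads of 12 libraries (3 each of WT and KO RNA-seq and WT and KO footprints) were available as whole-number counts per Ensembl gene, 1 table per assay, which the authors deposited under the name of adjusted counts. FastQC, Bowtie2 2.5.1, STAR 2.7.10a, HTSeq 2.0.3 and DESeq2 1.40.2 are named in the submitters' processing notes. Neither the kind of adjustment nor the strand setting nor the build of the counts is given in the sources used here. Tables of the authors' own comparison, deposited beside the counts, supplied their calls, and 12 columns of per-library values in them were not used. Sample titles gave the assay, the genotype and the replicate number.

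The assays were fitted separately in edgeR 4.0.16 under R 4.3.3 (TMM, filterByExpr with a minimum count of 10, quasi-likelihood test, Benjamini-Hochberg adjustment over all genes tested, threshold 0.05), leaving out 5 rows that name no gene. The SE of a log2 difference is its size over the root of the test's F. Intervals of pooled ratios are exact binomial at 95%. Fits were tested on simulated data with independent libraries, which cannot show how the fits do on tied ones. Sequences, gene kinds and gene order came from RefSeq tables of GRCm38.p6, and no coordinates were carried to the counts, whose build is not named. A comparison with near copies by protein sequence was not run.

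The listed genes, lists and rules were chosen with earlier results of these data known. Named genes are the listed genes, neighbours called or nearest, nucleoside transporters, reference genes and the 5 genes most alike in pattern. Genes just outside the list were named after their values were seen. Fits were repeated with DESeq2 1.42.0, RLE size factors, no filter on counts, the replicate number as a block, other constants and the omission of each library. Same-numbered WT and KO libraries deviated in opposite ways, so fits without the block count tied libraries as independent.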

Additional observations from a re-analysis of the deposited data

How the results depend on the processing

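The listed genes called higher numbered 6 in RNA-seq and 8 in footprints under RLE size factors, DESeq2, the replicate block and every omission of a library, and 8 in each without the filter on low counts. They were chosen from this same contrast, so their calls under these settings carry no evidence of their own. In the main fits 3.48% of all genes tested in RNA-seq and 9.25% in footprints were called higher. No called result changed its direction under the alternatives run. Of values that were not called, 5 changed sign in 8 omissions of a library: Cldn12 in RNA-seq (-0.03, then 0.04 and 0.07), Slc29a3 in RNA-seq (0.01, then -0.02 and -0.03), Oxa1l in footprints (0.03, then -0.03 and -0.01), the interaction of Gm43305 (0.6, then -0.06 without RNA-seq WT replicate 2) and the WT ratio of Gm15459 (0.31, then -0.01 without footprint WT replicate 1). With DESeq2 the genes called numbered 532 in RNA-seq, down from 943, and 1235 in footprints, down from 2376. The model-named genes outside the list then numbered 43 higher and 22 lower in RNA-seq and 46 and 34 in footprints, the footprint neighbours within 2 steps 1, and the transporters called in footprints 1. Without the filter, the model-named genes lower in footprints numbered 111 and the transporters 1 (Slc29a1, adjusted p of 0.0318). With the 10 nearest genes on each side, 7 neighbours were called in footprints. The footprint to RNA ratio of Gm8141 in KO moved from 3.77 to 4.21 with a constant of 0.1 CPM.

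With the replicate number as a block, RNA-seq kept 110 calls (53 higher, 57 lower) and footprints 408 (255 higher, 153 lower). In the blocked fits model-named genes outside the list numbered 7 higher and 8 lower in RNA-seq and 23 and 13 in footprints, the RNA-seq neighbours and transporters 0, and the footprint neighbours 1 within 2 steps and 2 within 10. Slc28a2 had an adjusted p of 0.193 in RNA-seq with the block, while Bambi-ps1 (0.0377) and Gm5165 (0.0115) passed in footprints and Gm6712 (0.0525), Mmp14 (0.0569), Dad1 (0.159), Cldn12 (0.168) and Abhd4 (0.281) did not. A block within each assay left 2 of 25 interaction calls. Same-numbered libraries deviated in opposite ways, so the numbers tie the libraries without pairing them in the usual sense, and the fits without the block count tied libraries as independent. The log2 differences of the genes named here moved by under 0.1 with the block.

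Omitting 1 library at a time gave 215 to 323 calls in RNA-seq, lowest without WT replicate 1, 1035 to 1554 in footprints and 6 to 23 for the interaction. Model-named genes outside the list then numbered 12 to 24 higher and 17 to 22 lower in RNA-seq and 52 to 91 and 26 to 51 in footprints. RNA-seq neighbours and transporters fell to 0 in each omission, and footprint neighbours numbered 1 within 2 steps and 4 to 7 within 10. Depth limits the WT values of Gm15459, Gm43305 and Gm8141 most, which rest on 2 to 55 reads per assay. The cause of these differences was not tested, except that omissions leave fewer libraries.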
